A study of Mus musculus with 26 samples.

Results

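The genes described here were 10 genes of the endoplasmic reticulum (ER) stress response and the integrated stress response, chosen by symbol: Hspa5, Hsp90b1, Calr, Pdia3, Dnajb9, Herpud1, Xbp1, Atf4, Ddit3 and Trib3. They were followed among 31053 genes listed for sorted microglia and among 30406 genes shared by both gene lists of cortical nuclei, in all 26 libraries of single-cell and single-nucleus RNA sequencing. The study asked how fetal microglia and other cells of the mouse cortex respond to maternal immune activation (MIA), in which the pregnant dam receives the double-stranded RNA mimic Poly(I:C) and control dams receive saline. Dams were injected at E12.5 (embryonic day, E), and all mice were C57Bl/6N. Microglia of wild-type mice were sorted by flow cytometry for Cd11b, Cx3cr1 and Cd45 from somatosensory cortex at E13.5 (3 saline and 3 MIA libraries), E15.5 (3 saline and 3 MIA) and postnatal day (P) 14 (4 saline and 2 MIA). The embryonic libraries held pooled embryos, and the P14 libraries held 1 mouse each. Nuclei came from frozen E15.5 cortex of males, either wild type or Csf1r-/- (written Csf1r-null here), 2 libraries for each genotype and treatment. Csf1r encodes a receptor that microglia need to develop, so these mice lack microglia from early development on, not from the time of injection.

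The unfolded protein response is the set of pathways by which a cell reacts to unfolded protein in its ER. The sensors IRE1, PERK and ATF6 sit in the ER membrane. IRE1 splices the mRNA of Xbp1 into the form that encodes an active transcription factor, PERK phosphorylates the initiation factor eIF2alpha so that translation slows while Atf4 is translated more, and ATF6 is cut to release a factor that raises chaperone genes. Other kinases reach the same eIF2alpha step on viral double-stranded RNA, lack of amino acids or lack of heme, which is why the shared downstream branch is called the integrated stress response. In that branch ATF4 induces Ddit3 (CHOP) and Trib3. ER chaperones are also made in cells without stress, so their levels alone do not measure it. The counts used here read 3′ ends and do not separate spliced from unspliced Xbp1, nor do they report on Atf4 translation.

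The genes lie, in mm10 (GRCm38) with GENCODE vM21, at chr2:34771970-34777547 (Hspa5, plus strand), chr10:86690209-86705509 (Hsp90b1, minus), chr8:84841850-84846934 (Calr, minus), chr2:121413775-121438687 (Pdia3, plus), chr12:44205559-44210326 (Dnajb9, minus), chr8:94386438-94395377 (Herpud1, plus), chr11:5520659-5525893 (Xbp1, plus), chr15:80255184-80257541 (Atf4, plus), chr10:127290774-127296288 (Ddit3, plus) and chr2:152337422-152344032 (Trib3, minus). All are protein coding. In this annotation, same-strand genes overlap Hsp90b1 (Gm15344 and Gm25745) and Ddit3 (another gene model also named Ddit3). How reads in such an overlap were counted was not examined, so both counts carry that uncertainty.

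The promoter windows of all 10 genes (250 bases before to 50 after the RefSeq start, GRCm38.p6) were searched on both strands for the sequence elements through which these pathways are known to act. The ER stress element, bound by ATF6 with NF-Y, was written as CCAAT, 9 bases of any kind and CCACG. It was found in 3 of the 10 windows, those of the chaperones Hspa5, Hsp90b1 and Calr, and in 0.119% of all 32851 windows. The ER stress element II, written as ATTGG, any base and CCACG, was found in the Herpud1 window and in 0.0365% of all windows. The CEBP-ATF response element, bound by ATF4 and CHOP and written as TGATG, any base, AA and C or T, was found in the Herpud1 window and in 1.77% of all windows. The core of the UPR element bound by XBP1, written as TGAC directly followed by GTGG, was found in none of the 10 windows and in 0.676% of all. The matches are shown because they were found for 3 of the 4 chaperones and Herpud1. Pdia3, Dnajb9 and the regulators Xbp1, Atf4, Ddit3 and Trib3 had no match in these windows. Each line gives 30 bases on the strand of the gene, 5′ to 3′, with the matched element in capitals. The stretches lie at chr2:34772020-34772049 for Hspa5, chr10:86705632-86705661 and chr10:86705527-86705556 for the farther and nearer Hsp90b1 matches, chr8:84847069-84847098 for Calr, and chr8:94386368-94386397 and chr8:94386306-94386335 for the Herpud1 element II and CEBP-ATF matches. The nearer Hsp90b1, the Calr and the CEBP-ATF matches are on the strand opposite to the gene, so the capitals there read as the reverse complement.
Hspa5: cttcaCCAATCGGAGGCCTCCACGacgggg
Hsp90b1, farther: caagcCCAATCGCAAGGAGCCACGcttcgg
Hsp90b1, nearer: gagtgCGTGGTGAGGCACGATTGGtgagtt
Calr: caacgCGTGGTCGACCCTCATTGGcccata
Herpud1, element II: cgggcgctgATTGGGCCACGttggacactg
Herpud1, CEBP-ATF: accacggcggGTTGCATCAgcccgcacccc
Counted from the RefSeq start, the Hspa5 match spans bases 65 to 47 before it, the Herpud1 element II match bases 52 to 42, and the Calr match bases 162 to 144. The RefSeq start of Hspa5 lies downstream of the start of its GENCODE gene model, so the Hspa5 stretch falls inside the GENCODE coordinates given above. A match is a description of these letters and not a shown binding site. The genes and the elements were both chosen as known parts of the same pathways. The shares over all windows are therefore not a test of enrichment.

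Depth ranged from 6160925 to 105751888 unique molecular identifiers (UMIs) per microglia library and from 9897721 to 17605575 per nuclei library. Levels are CPM, the UMIs of a gene summed over the cells of a library and set per total UMIs. For levels of single genes in whole libraries, the total was scaled by trimmed mean of M values (TMM) within each experiment. Levels by cell type or cluster, and sums of marker genes, were set per total UMIs without that scaling. Fewer expressing cells and less RNA per cell cannot be told apart in such sums. Levels are not compared between genes, since 3′ tag counts are not set per length. Microglial marker genes summed to between 20057.5 and 62930.9 CPM in the sorted libraries. Several libraries stood apart. Marker genes of dividing cells summed to between 1607 and 1875 CPM in E13.5 saline microglia, between 486 and 1530 CPM at E15.5 and between 50.3 and 83.1 CPM at P14, and ribosomal protein genes took 18.3% to 20.1% of UMIs at E13.5, 19.3% to 20.0% at E15.5 and 9.1% to 9.4% at P14 in saline libraries. The library E15.5 MIA replicate 1 had 1117 CPM of dissociation and immediate early genes against 289 CPM in the lowest library of its group. Of the 375 cells of E13.5 MIA replicate 2, 258 shared their barcode with P14 saline replicate 3F, and of the 280 cells of E13.5 MIA replicate 1, 133 did so with P14 MIA replicate 1. Each shared barcode was kept only in the library where it had most UMIs, which took 16.2% of the cells of E15.5 MIA replicate 3. In nuclei, Csf1r itself had 23 and 11 UMIs in the wild-type saline libraries, 22 and 0 in wild-type MIA, 4 and 10 in Csf1r-null saline and 2 and 1 in Csf1r-null MIA. The libraries labelled wild-type MIA replicate 2 and Csf1r-null saline replicate 2 thus went against their labels, and values of nuclei that rest on them are also given without both for the comparisons of whole libraries and for Xbp1 in apical progenitors.

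The ER chaperones were abundant in microglia at all 3 ages, and Hspa5 and Calr had their highest saline levels at E13.5. Hspa5 encodes BiP, the chaperone that also holds the stress sensors inactive. In saline microglia it stood at 1022, 987 and 899.6 CPM at E13.5, at 666, 816 and 741 CPM at E15.5, and at 764, 667, 624.7 and 648 CPM at P14. Every E13.5 saline library was above every E15.5 saline library, and the E15.5 and P14 libraries overlapped. Hspa5 fell from E13.5 to E15.5 by 0.39 on the log2 scale (SE 0.12, edgeR quasi-likelihood adjusted p = 0.031) and differed by -0.14 ± 0.11 (SE) between P14 and E15.5, with an adjusted p of 0.32. The fall kept its size but lost its call without E13.5 saline replicate 1 or 2 or E15.5 saline replicate 3 (-0.39 to -0.38, adjusted p from 0.064 to 0.092), and it lost it too without the filter on low counts (-0.37, adjusted p = 0.067) and with mitochondrial and ribosomal shares as covariates (-0.32, adjusted p = 0.069). In MIA microglia the E13.5 values were 765, 841 and 1043 CPM and the E15.5 values 847, 652 and 598 CPM, and these overlapped. The MIA difference was -0.30 ± 0.18 with an adjusted p of 0.27.

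Calr encodes calreticulin, which binds newly made glycoproteins in the ER. Its saline levels were 1136, 1291 and 1109 CPM at E13.5, 661, 948 and 1021 CPM at E15.5, and 699, 695, 610.0 and 665 CPM at P14. The levels stepped down with age, with E13.5 above E15.5 in every saline library and an overlap between E15.5 and P14 that came from E15.5 replicate 1. The E15.5 difference of -0.43 ± 0.15 missed the threshold (adjusted p = 0.055) but passed it without E15.5 saline replicate 3 (-0.55, adjusted p = 0.032) and without dividing clusters (-0.49, adjusted p = 0.025). Calr fell from E15.5 to P14 by 0.40 (SE 0.14, edgeR adjusted p = 0.032). The P14 call was lost without E15.5 saline replicate 2 or 3 or P14 saline replicate 2, 3F or 3M, with differences between -0.41 and -0.28, and also with non-microglial clusters kept (adjusted p = 0.061) or with P14 saline replicates 3F and 3M summed (adjusted p = 0.077). In MIA microglia Calr was 1036, 1143 and 1047 CPM at E13.5 and 604, 772 and 938 CPM at E15.5, again without overlap, at -0.44 ± 0.17 and an adjusted p of 0.097. The MIA difference passed without E15.5 MIA replicate 3 (-0.60, adjusted p = 0.029) and with DESeq2 (-0.46, adjusted p = 0.033). From E15.5 to P14 Calr differed in MIA libraries by -0.19 ± 0.19, with an edgeR adjusted p of 0.48.

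Hsp90b1 (GRP94, the ER member of the HSP90 family) and Pdia3 (ERp57, the disulfide isomerase that works with calreticulin) passed the test in no comparison of ages with all libraries. Hsp90b1 ranged from 1051 to 1475 CPM over the 18 libraries, with saline differences of -0.08 ± 0.11 at E15.5 against E13.5 and -0.19 ± 0.10 at P14 against E15.5. The P14 difference passed without P14 saline replicate 1 (-0.26, adjusted p = 0.048). Pdia3 was 702, 777 and 738 CPM in E13.5 saline and 863, 897 and 839 CPM in E15.5 saline libraries. These Pdia3 values did not overlap, yet the difference of 0.23 ± 0.11 had an adjusted p of 0.15.

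**Figure D1:**
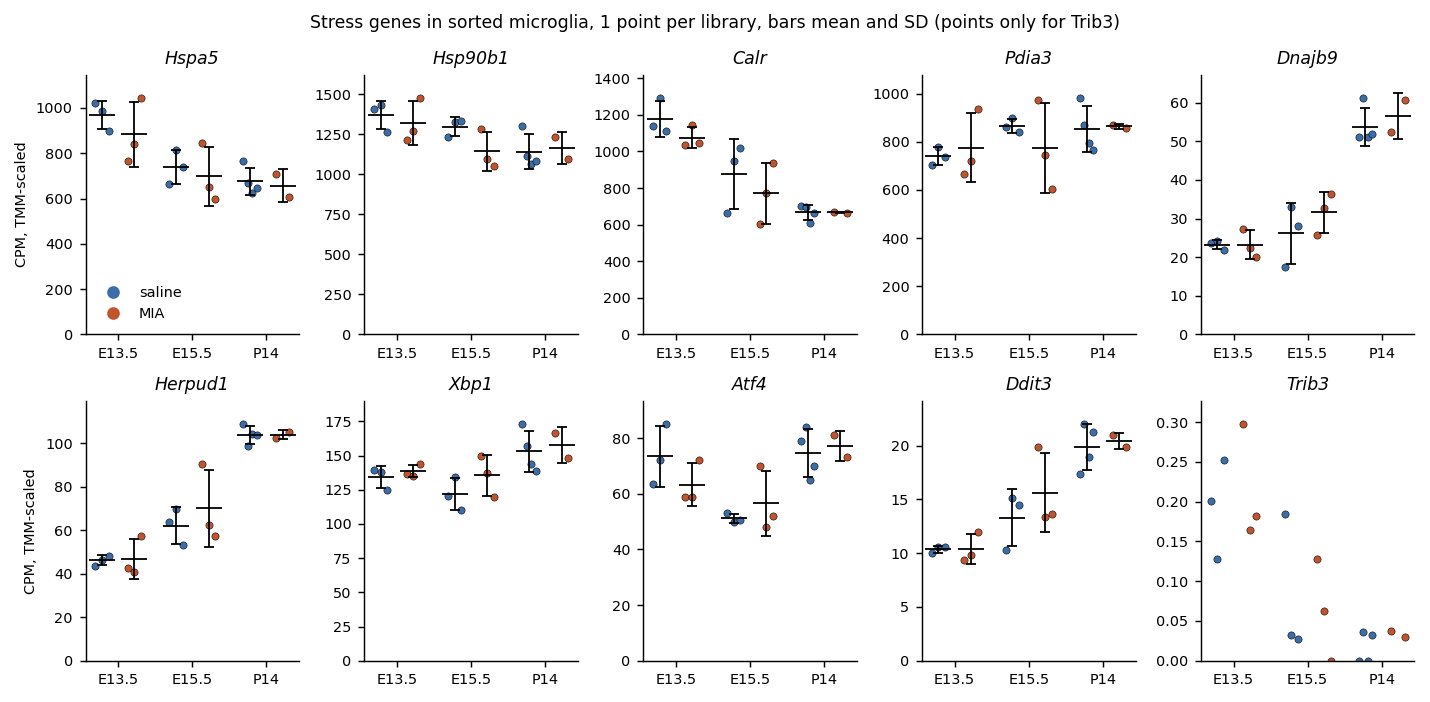
TMM-scaled CPM of the 10 genes in sorted microglia (linear axes from 0), by age on the horizontal axis, with 1 point per library in blue for saline and orange for MIA, and lines for the group mean and SD. Dnajb9 and Herpud1 step up at P14, where all 6 Dnajb9 libraries lie at 51.1 CPM or above. Calr steps down from E15.5 to P14 in saline, with overlap, and saline and MIA points intermingle at P14.

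The 2 genes of ER-associated degradation, the route by which misfolded proteins leave the ER for the proteasome, were higher at P14. Dnajb9 (ERdj4) is a co-chaperone of BiP that binds misfolded proteins and is an XBP1 target. It was 23.6, 24.1 and 22.0 CPM in E13.5 saline libraries, 17.4, 33.0 and 28.0 CPM at E15.5, and 51.1, 61.2, 51.2 and 51.8 CPM at P14. All P14 libraries were above all embryonic ones, and E13.5 fell within the E15.5 range. Dnajb9 rose from E15.5 to P14 by 1.04 ± 0.18 (edgeR adjusted p = 0.00059) and differed by 0.17 ± 0.19 at E15.5 against E13.5. Without E15.5 saline replicate 1, the lowest of its group, that earlier difference was 0.39 and passed (adjusted p = 0.017). In MIA libraries it was 27.3, 22.3 and 20.1 CPM at E13.5, 25.9, 32.7 and 36.3 CPM at E15.5 and 52.3 and 60.8 CPM at P14. The MIA difference at E15.5 against E13.5 was 0.49 ± 0.18 (adjusted p = 0.076). It passed without E15.5 MIA replicate 1 (0.61, adjusted p = 0.012) and was 0.22 with the dividing clusters left out (adjusted p = 0.40). The MIA libraries also rose from E15.5 to P14, by 0.86 ± 0.19 (adjusted p = 0.0081), a call that was lost without P14 MIA replicate 2 (0.76, adjusted p = 0.088). Within libraries Dnajb9 was lower in dividing microglia, and markers of dividing cells were lower at later ages. With the dividing clusters left out, the saline rise from E15.5 to P14 was 0.92 and still passed the test, while the difference at E15.5 against E13.5 went from 0.17 to -0.11. Embryonic clusters with DNA replication or mitotic genes among their leading genes stayed in that fit. It therefore removed only part of the dividing cells and cannot separate division from age.

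Herpud1 (HERP), a membrane scaffold of the degradation complex, was the gene of the 10 that rose at both steps in saline microglia. Its values were 43.8, 46.4 and 48.4 CPM at E13.5, 63.7, 69.6 and 53.0 CPM at E15.5, and 109, 98.8, 104 and 104 CPM at P14. The 3 ages did not overlap. Herpud1 rose by 0.43 ± 0.11 from E13.5 to E15.5 (edgeR adjusted p = 0.019) and by 0.74 ± 0.11 from E15.5 to P14 (adjusted p = 0.00017). The E15.5 call was lost without E13.5 saline replicate 1 or 2 or E15.5 saline replicate 2, at differences of 0.34 to 0.43. MIA values were 42.5, 40.9 and 57.5 CPM, then 90.3, 62.7 and 57.2 CPM, then 103 and 105 CPM. Here E13.5 and E15.5 overlapped, and the differences of 0.61 ± 0.20 and 0.59 ± 0.22 missed the threshold with adjusted p-values of 0.055 and 0.069. The first passed without E13.5 MIA replicate 3 (0.78, adjusted p = 0.043) or E15.5 MIA replicate 3 (0.73, adjusted p = 0.025), with DESeq2 (adjusted p = 0.040) and without the filter (adjusted p = 0.041). Without E15.5 MIA replicate 1, which held the value of 90.3 CPM and the high immediate early genes, the P14 difference was 0.82 (adjusted p = 0.0044).

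The regulators differed in pattern. Xbp1, the transcription factor of the IRE1 branch, was 139, 138 and 125 CPM in E13.5 saline libraries, 121, 134 and 110.4 CPM at E15.5 and 173, 157, 144 and 139 CPM at P14. It rose from E15.5 to P14 by 0.33 ± 0.11 (edgeR adjusted p = 0.029). That call was lost without E15.5 saline replicate 3 or P14 saline replicate 1 or 2 (0.26 to 0.32) with dividing clusters left out (0.28, adjusted p = 0.062) and without the filter on low counts (0.30, adjusted p = 0.062). In MIA libraries the same difference was 0.23 ± 0.15 with an adjusted p of 0.28.

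Atf4, the transcription factor of the integrated stress response, was lowest at E15.5 in saline microglia. It stood at 63.4, 72.0 and 84.9 CPM at E13.5, at 53.0, 49.9 and 50.5 CPM at E15.5, and at 79.1, 84.0, 65.1 and 69.8 CPM at P14. The E15.5 libraries lay below all others. Atf4 fell by 0.52 from E13.5 to E15.5 (SE 0.13, edgeR adjusted p = 0.015) and rose by 0.54 ± 0.13 from E15.5 to P14 (adjusted p = 0.0037). The fall lost its call without E13.5 saline replicate 3 (-0.41, adjusted p = 0.066) or E15.5 saline replicate 2 (-0.51, adjusted p = 0.053). In MIA libraries the values were 59.0, 58.8 and 72.1 CPM at E13.5, 70.0, 47.9 and 51.8 CPM at E15.5 and 81.1 and 73.3 CPM at P14, with differences of -0.13 ± 0.17 and 0.46 ± 0.19 that did not pass. The second passed without E15.5 MIA replicate 1 (0.66, adjusted p = 0.0066) and with non-microglial clusters kept (0.54, adjusted p = 0.040).

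Ddit3 (CHOP), the factor downstream of ATF4 that promotes cell death under lasting stress, was 10.0, 10.5 and 10.6 CPM in E13.5 saline libraries, 10.3, 15.2 and 14.5 CPM at E15.5, and 17.4, 22.0, 18.9 and 21.2 CPM at P14. It rose from E15.5 to P14 by 0.58 ± 0.14 (edgeR adjusted p = 0.0053), and the E15.5 difference of 0.35 ± 0.15 did not pass (adjusted p = 0.11). It passed without E15.5 saline replicate 1 (0.51, adjusted p = 0.0049) and with the mitochondrial and ribosomal covariates (0.49, adjusted p = 0.023). MIA values were 9.36, 9.86 and 11.96 CPM at E13.5, 19.8, 13.3 and 13.7 CPM at E15.5 and 21.0 and 19.9 CPM at P14. In MIA libraries Ddit3 rose from E13.5 to E15.5 by 0.61 ± 0.19 (adjusted p = 0.048). This call was lost on leaving out any 1 MIA library other than E15.5 MIA replicate 3, the P14 libraries included (adjusted p from 0.063 to 0.18). It was lost as well with DESeq2 (0.051), DESeq2 size factors (0.062), non-microglial clusters kept (0.071), shared barcodes kept (0.059) and library sizes alone (0.066). Without E15.5 MIA replicate 1 the difference was 0.36 with an adjusted p of 0.0998, and the rise from E15.5 to P14 was 0.63 with an adjusted p of 0.014 in place of 0.40 and 0.17. Trib3, a pseudokinase induced by ATF4 and CHOP, had 0 to 16 UMIs per microglia library and 0 to 5 per nuclei library and passed the filter on low counts in no comparison. It could therefore not be tested, and a library with 0 UMIs allows up to 3.

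Counted over all 10 genes, 9 could be tested at each step. In saline microglia 1 of the 9 rose and 2 fell from E13.5 to E15.5, beside 15.2% of 13457 genes called higher and 11.8% called lower (27% in either direction), so 3 of 9 stood near the background. From E15.5 to P14 5 of 9 rose (Dnajb9, Herpud1, Xbp1, Atf4 and Ddit3) and 1 fell (Calr), beside 26.1% called higher and 27.6% lower (53.7% in all). Their median difference was 0.33 against 0.03 over all genes. In MIA microglia 1 of 9 rose at each step, beside 11.3% higher and 9.97% lower (21.3%) from E13.5 to E15.5 and 13.7% higher and 15.2% lower (28.9%) from E15.5 to P14. Both steps share the E15.5 libraries, so a low or high E15.5 value moves both differences in opposite directions. At P14 the scaling also matters. Without TMM factors the median of all genes stood at 0.28 rather than 0.03 in the saline step, and Calr then differed by -0.15 (adjusted p = 0.37). Immediate early genes summed to between 297 and 339 CPM in E15.5 saline and between 502 and 610 CPM in P14 saline libraries, and the falls in dividing and ribosomal genes ran along the same step. Fits were run without dividing clusters, which kept some dividing cells, and with mitochondrial and ribosomal shares as covariates. With the covariates, Dnajb9, Herpud1, Xbp1, Atf4, Ddit3 and Calr all lost their calls from E15.5 to P14 in saline. Those shares themselves separate P14 from the embryonic ages, so that fit cannot tell them from age. The part of immediate early genes in these differences was not tested.

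**Figure D2:**
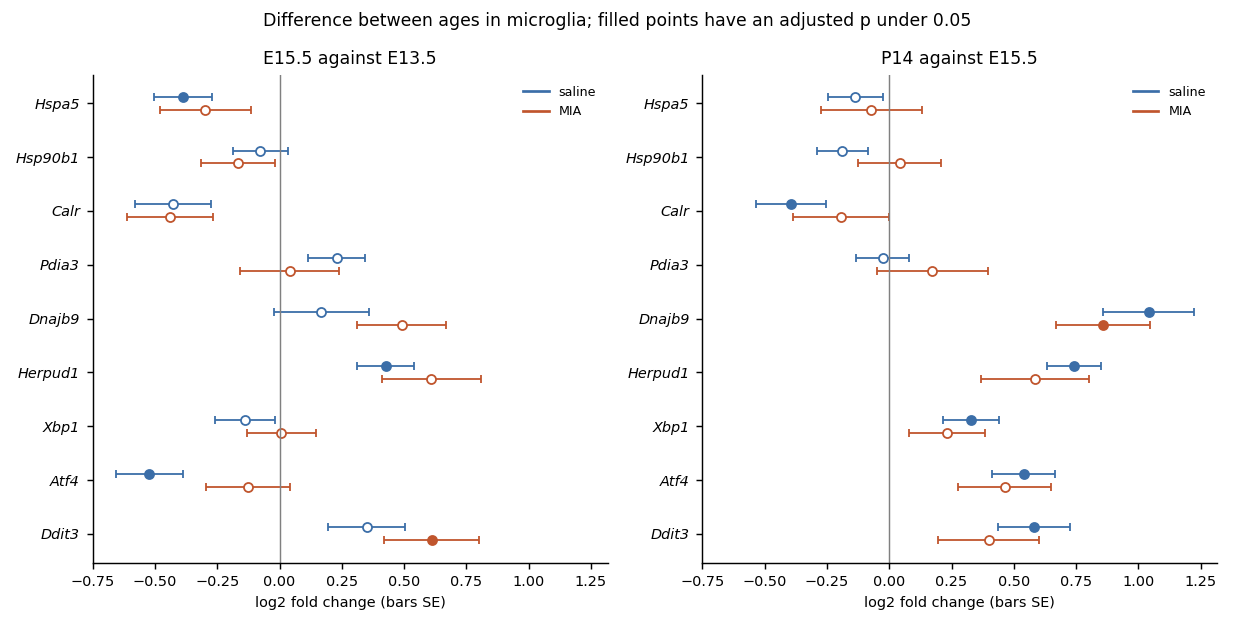
Log2 fold change of 9 genes between ages in microglia (Trib3 was too low), with E15.5 against E13.5 on the left and P14 against E15.5 on the right, saline in blue and MIA in orange, bars for the SE and filled points for an edgeR adjusted p under 0.05. The 5 genes from Dnajb9 to Ddit3 lie to the right of 0 at P14 in both treatments, from 0.23 for Xbp1 in MIA to 1.04 for Dnajb9 in saline, and Calr lies to the left.

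MIA left these genes without a detected change in microglia. None of the 9 passed the test at E13.5, E15.5 or P14, and no gene at all did, 0 of 12394, 13160 and 12943 genes (0% called at each age). The unadjusted p was under 0.05 for 123, 70 and 481 genes, and DESeq2 called 2, 2 and 1. These tests took all microglia of a library together. The study tested all microglia together and each substate with DESeq2, and named sex and sequencing batch as covariates. For all E13.5 microglia together it reported higher Ccl12, Jund, Isg15 and Clec12a after MIA, and at P14 lower Hes1 and Lars2. None of these passed the edgeR test here, which had no term for sex or batch. From gene lists at a looser threshold it reported that genes lowered in maturing microglia at E15.5 were enriched for the ER stress response. Substates were not tested for MIA here, so that enrichment and the tests here are not alike in cells or test. At E13.5, 1 day after injection, the differences ran from -0.21 ± 0.14 for Atf4 to 0.07 ± 0.14 for Pdia3. At E15.5 they ran from -0.17 ± 0.15 for Hsp90b1 to 0.29 ± 0.26 for Dnajb9, and Ddit3 was at 0.25 ± 0.23. Herpud1, Atf4 and Ddit3 were highest at E15.5 in MIA replicate 1 with 90.3, 70.0 and 19.8 CPM, while the other MIA libraries lay within or next to the saline ranges, at 57.2 and 62.7, 47.9 and 51.8, and 13.3 and 13.7 CPM. At P14 the differences ran from -0.05 ± 0.10 for Hspa5 to 0.06 ± 0.11 for Dnajb9. The response to MIA did not differ between E15.5 and E13.5 for any of the 9 genes by the interaction test (0 of 13490 genes, 57 at an unadjusted p under 0.05, 0 by DESeq2), with Atf4 the farthest at 0.41 ± 0.24 and an unadjusted p of 0.12.

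In nuclei of the E15.5 cortex, most of these genes had lower levels after MIA in both genotypes, by amounts that did not pass the test. Xbp1 was 84.2 and 84.2 CPM in wild-type saline, 59.5 and 66.8 CPM in wild-type MIA, 79.5 and 89.3 CPM in Csf1r-null saline and 52.7 and 77.1 CPM in Csf1r-null MIA libraries. Both MIA groups lay below both saline groups, and the share of all genes that separate in this way is not given here. The difference was -0.42 ± 0.19 in wild type (edgeR unadjusted p = 0.059, adjusted p = 0.89) and -0.38 ± 0.19 in Csf1r-null nuclei (unadjusted p = 0.080). Herpud1 was 48.7 and 47.4 CPM in wild-type saline, 34.4 and 42.1 CPM in wild-type MIA, 34.6 and 34.4 CPM in Csf1r-null saline and 32.8 and 33.0 CPM in Csf1r-null MIA libraries. Wild-type saline alone stood higher, at -0.33 ± 0.14 for MIA (unadjusted p = 0.047, adjusted p = 0.89) and -0.48 ± 0.14 for loss of Csf1r in saline (unadjusted p = 0.010, adjusted p = 0.84). Hspa5 was 270.3 and 214 CPM in wild-type saline and 167 and 214 CPM in wild-type MIA libraries, at -0.35 ± 0.23. The ranges met at 214 CPM.

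Of the 9 genes 7 had negative differences in wild-type nuclei, with Atf4 at 0.11 ± 0.17 and Ddit3 at 0.15 ± 0.24 the exceptions. In Csf1r-null nuclei every difference of the 9 but that of Dnajb9 (0.03 ± 0.21) was negative. The median over the 9 was -0.33 in wild type, beside 0.02 over all 14379 genes. It was -0.14 in Csf1r-null nuclei, beside 0.01 over all genes. None was called in either genotype, for either treatment or for the interaction of both, and neither was any other gene (0% in all 5 comparisons). The wild-type comparison had 791 genes at an unadjusted p under 0.05 and the Csf1r-null one 41, the genotype comparisons had 818 in saline and 52 in MIA, and the interaction had 255. DESeq2 called 4, 1, 4, 0 and 2 genes in these comparisons. For the interaction, the test of whether MIA acted differently in the 2 genotypes, the differences ran from -0.47 ± 0.34 for Ddit3 to 0.35 ± 0.30 for Dnajb9. With both libraries that went against their labels left out, the wild-type differences became -0.49 for Xbp1, -0.53 for Hspa5, -0.62 for Pdia3, -0.47 for Herpud1 and -0.44 for Hsp90b1, while Atf4 and Ddit3 turned to -0.09 and -0.20. The Herpud1 difference for loss of Csf1r in saline was then -0.47, the Xbp1 difference for MIA in Csf1r-null nuclei -0.31, and the interaction ran from -0.15 for Ddit3 to 0.65 for Pdia3. No gene of the 9 was called in any of these, but the wild-type MIA and Csf1r-null saline groups then held 1 library each, which was assumed to vary like the other groups, so the missing calls say little. Marker genes of apical progenitors, the nuclei richest in these chaperones, summed to between 890 and 1366 CPM in wild-type saline and between 837 and 1037 CPM in wild-type MIA libraries. These ranges overlap, and such sums are not counts of apical progenitor nuclei. The part of these nuclei in the difference was not tested at the level of whole libraries.

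**Figure D3:**
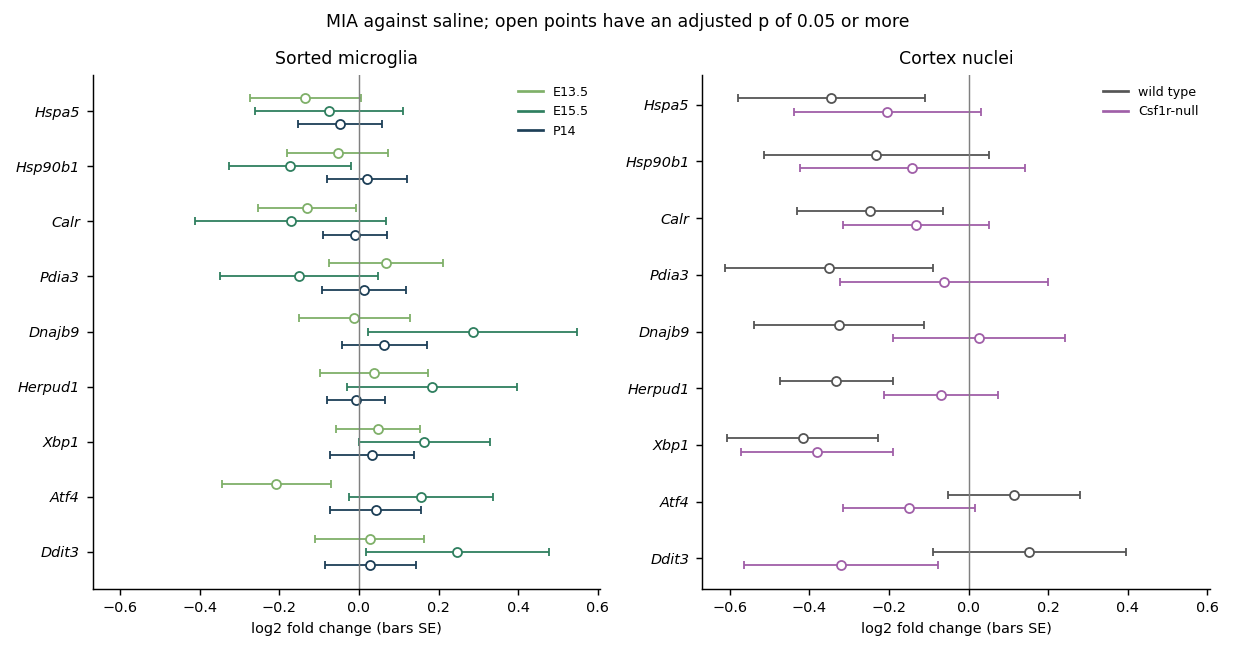
Log2 fold change of 9 genes after MIA against saline, in sorted microglia at 3 ages on the left and in nuclei of wild-type and Csf1r-null cortex on the right, with bars for the SE. Every point is open because none passed an adjusted p of 0.05, and microglial values lie within 0.29 of 0. In nuclei, 7 of the 9 wild-type values and all Csf1r-null values but that of Dnajb9 lie below 0.

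The chaperones were highest in apical progenitors among the 7 named cell types of cortical nuclei compared here. Nuclei were clustered without these genes and named from marker genes as apical progenitor-like, intermediate progenitor-like, migrating neuron-like, callosal, subcerebral and corticothalamic projection neuron-like and interneuron-like; the suffix is left out from here. The apical progenitors included a cluster of 1337 nuclei led by division genes such as Top2a and Mki67, and the intermediate progenitors included 2 such clusters of 822 and 257 nuclei. The migrating neurons included a cluster of 3081 nuclei whose leading genes were the hemoglobin genes Hbb-y, Hba-x and Hba-a1, ahead of the neuronal genes Nrp1 and Unc5d. Hspa5 in the 4591 apical progenitors ran from 408 to 857 CPM over the 8 libraries, with a mean of 583 CPM, and from 87.1 to 125 CPM in corticothalamic projection neurons, with a mean of 99.8 CPM. The ratio of these means was 5.84, and apical progenitors were higher in 8 of 8 libraries. Hsp90b1 stood 4.58-fold higher (1028 against 225 CPM), Pdia3 4.20-fold (596 against 142 CPM) and Calr 3.29-fold (459 against 140 CPM), each in 8 of 8 libraries. Of 11414 genes with at least 5 CPM, 42.1% were higher in every library in this contrast and 22.9% lower, so the direction alone was common, and these are descriptions without a test. Intermediate progenitors lay between, with Hspa5 at 279 CPM and Hsp90b1 at 501 CPM. Calr did not step down in order, with 263 CPM in intermediate progenitors, 295 CPM in migrating neurons and 274 CPM in callosal projection neurons.

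Among the degradation genes and regulators, Atf4 and Herpud1 followed the chaperones. Atf4 was 2.29-fold and Herpud1 1.80-fold higher in apical progenitors than in corticothalamic neurons, each in 8 of 8 libraries. Dnajb9 was at a ratio of 1.23 (higher in 7 of 8), Xbp1 at 1.30 (6 of 8) and Ddit3 at 1.09 (5 of 8). Their median log2 differences over the libraries were 0.24, 0.26 and 0.09. The median over all genes in this contrast was 0.31, so these 3 genes were not above the general shift. Xbp1 was low in intermediate progenitors, at 40.8 CPM against 65.2 CPM in corticothalamic neurons, and lower in all 8 libraries, while Hspa5 and Atf4 were higher there in all 8, beside 38.4% of 11089 genes higher and 21.0% lower in every library. Ddit3 was lower in apical progenitors than in migrating neurons in 8 of 8 libraries, at 19.4 against 28.0 CPM, where 18.3% of 11041 genes were lower in every library and 39.9% higher. Trib3 had too few UMIs for any cell type.

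**Figure D4:**
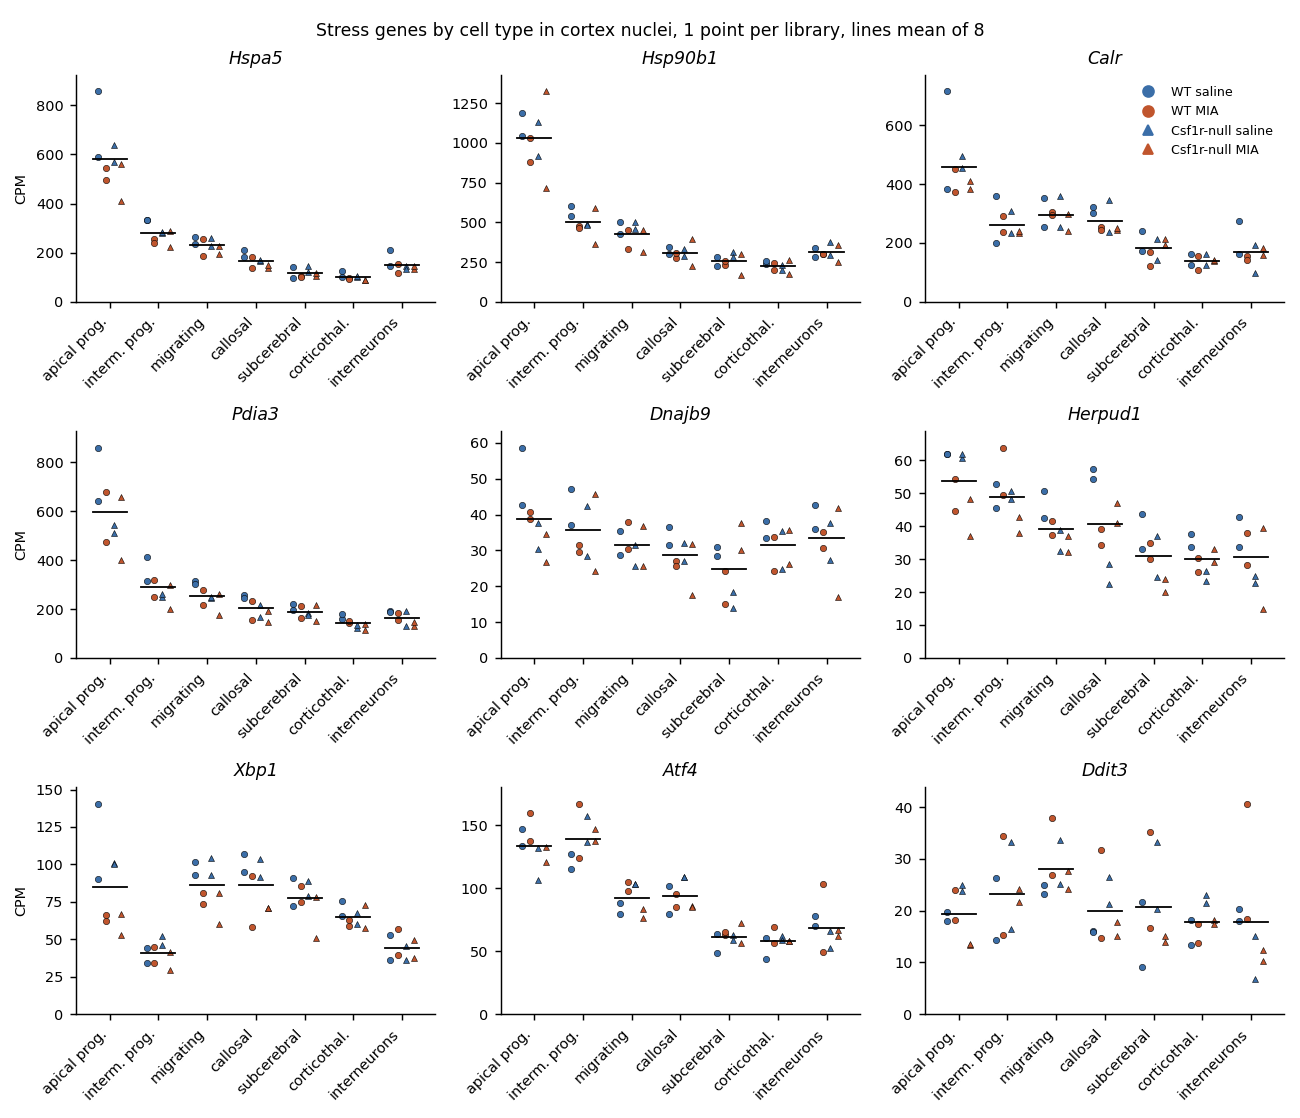
CPM of 9 genes by cell type in cortex nuclei, with 1 point per library, colour for treatment, shape for genotype and a line at the mean of 8 libraries. Hspa5, Hsp90b1, Calr and Pdia3 peak in apical progenitors, Calr is about level from intermediate progenitors (263 CPM) to callosal neurons (274 CPM), Xbp1 dips in intermediate progenitors at 40.8 CPM, and the wild-type saline apical progenitors include the highest Xbp1 value.

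Within cell types, MIA against saline called no gene in any of the 7 types in either genotype (0% in each), with between 8079 and 11116 genes tested per type. The study reported MIA changes in multiple cell types of wild-type nuclei, most of them abolished in Csf1r-null nuclei. It used NEBULA, a mixed model on single nuclei with sample as random effect, and reported similar results with DESeq2 on summed counts. The edgeR test on library sums here is a different test. The value that came nearest to a call here was Xbp1 in apical progenitors. It was 141 and 90.6 CPM in wild-type saline, 62.0 and 65.9 CPM in wild-type MIA, 101 and 100.2 CPM in Csf1r-null saline and 52.9 and 66.6 CPM in Csf1r-null MIA libraries, on 54 to 170 UMIs per library. All 4 MIA libraries lay below all 4 saline libraries. This value was picked as the nearest over the 7 cell types, and the share of all genes that separate in this way is not given here. The separation is thus a description only. The difference was -0.93 ± 0.23 in wild type (edgeR unadjusted p = 0.0021, adjusted p = 0.42) and -0.78 ± 0.25 in Csf1r-null apical progenitors (unadjusted p = 0.0091, adjusted p = 1.00). With the replicate number as a block, which in nuclei also separates the software version, the wild-type value was -0.94 with an adjusted p of 0.016, and 239 of 10741 genes (2.23%) were called. Without the filter on low counts the adjusted p was 0.023. Without both libraries that went against their labels the value was -0.996, with 1 library left in the wild-type MIA group, and over single libraries left out the value ran from -1.18 to -0.64. Hspa5 in wild-type apical progenitors differed by -0.55 ± 0.23 (unadjusted p = 0.038, adjusted p = 0.51), and Ddit3 in Csf1r-null ones by -0.87 ± 0.34 (unadjusted p = 0.026).

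Embryonic and P14 microglia held clusters in which these genes departed from the rest of the same library. The clusters were built without the 10 genes and named from marker genes, and each was set against the other microglia of its own library. Only libraries with at least 20 cells of a cluster were used. Cells of 1 library are not replicates, so only the number of libraries is counted and no test is given. Some dividing cells stayed among the other microglia, in clusters with DNA replication genes such as Mcm6 or mitotic genes such as Ccnb2, Cenpa and Knl1 among their leading genes. Dividing microglia had less Dnajb9, 13.1 against 29.2 CPM on average over 12 libraries, a ratio of 0.45, and were lower in all 12. Pdia3 was also lower in all 12, at a ratio of 0.84, beside 13.9% of 9148 genes lower and 14.2% higher in every library. Herpud1 was higher in interferon-responsive embryonic microglia, 154 against 61.5 CPM, a ratio of 2.50 and higher in 7 of 7 libraries, beside 6.58% of 9062 genes higher and 14.2% lower in all. Its log2 difference ran unevenly over the libraries, from 0.43 to 2.50 with a median of 1.05. Ddit3 was at a ratio of 1.83 in the interferon-responsive cells and higher in 6 of 7. In Hmox1-high embryonic microglia, which carry the heme oxygenase gene, Herpud1 was instead lower in 7 of 7 libraries (ratio 0.64) and Atf4 higher in 7 of 7 (ratio 1.27), beside 21.6% of 8922 genes lower and 7.27% higher in all.

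Microglia high in the chemokines Ccl3 and Ccl4 carried more of the chaperones at both ages. The embryonic cluster was led by Spp1 before Ccl3 and Ccl4, with Csf1, Fabp5, Igf1, Cd9 and Lag3 among its top 10 genes, so Spp1-high cells were part of it. In embryonic libraries Hspa5 was 1262 against 663 CPM, a ratio of 1.90, Calr was at 1.55, Hsp90b1 at 1.46 and Pdia3 at 1.30, each higher in 7 of 7 libraries. Ddit3 (1.58), Xbp1 (1.43), Atf4 (1.29) and Dnajb9 (31.0 against 28.2 CPM) were also higher in 7 of 7, but Herpud1 in only 1 of 7 (0.90), beside 13.2% of 8882 genes higher and 19.4% lower in all. The library E15.5 MIA replicate 1 held 52.3% of these cells, and the ratio for Hspa5 was above 1 in each of the other 6 libraries as well. At P14 the ratios were 1.65 for Hspa5 (1148 against 697 CPM), 1.40 for Hsp90b1, 1.35 for Calr, 1.31 for Pdia3, 1.25 for Dnajb9 and 1.11 for Xbp1, each higher in 6 of 6 libraries, beside 18.6% of 9204 genes higher and 25.1% lower in all. Interferon-responsive P14 microglia had the 4 chaperones higher by small amounts in 6 of 6 libraries (Hspa5 at 755 against 697 CPM), while Herpud1 was higher in 2 of 6 (ratio 0.96), beside 4.28% of 9188 genes higher and 6.18% lower in all.

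**Figure D5:**
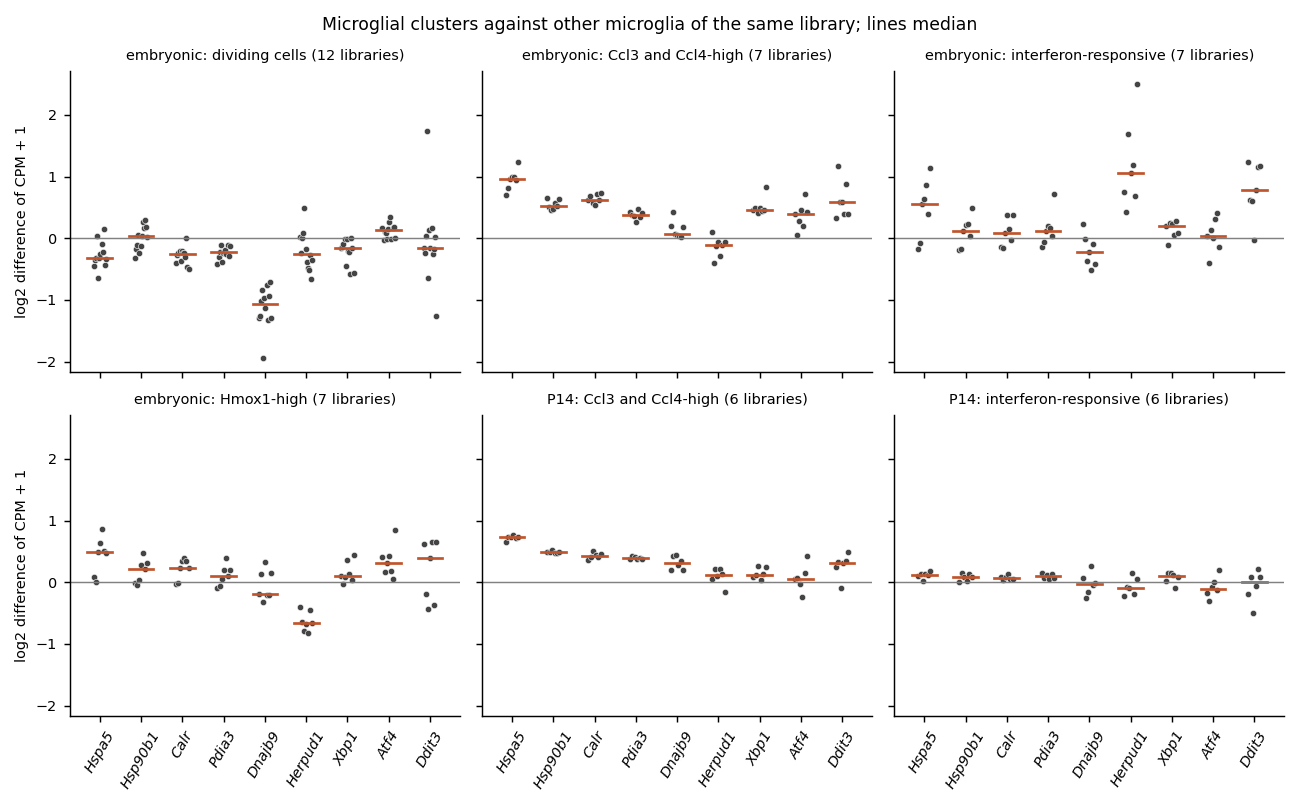
Difference in log2(CPM + 1) of 9 genes between a microglial cluster and the other microglia of the same library, 1 point per library, with a line at the median, in 4 embryonic and 2 P14 clusters. Dnajb9 lies below 0 in all 12 libraries for dividing cells, Herpud1 above 0 in 7 of 7 for embryonic interferon-responsive cells, and the chaperones above 0 for Ccl3 and Ccl4-high cells.

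Other genes of the same pathways were taken from 4 lists of 102 genes in all, none of them one of the 10. Over all genes, 15.2% were called higher and 11.8% lower from E13.5 to E15.5 in saline microglia, and 26.1% and 27.6% from E15.5 to P14, and the counts below are to be read beside these. No list had a called gene in any MIA comparison of microglia or in nuclei. Between ages in saline microglia, the 24 other chaperones and folding enzymes had 0 called higher and 7 lower from E13.5 to E15.5, with a median of -0.28 beside 0.04 over all genes, and 2 higher and 6 lower from E15.5 to P14. Examples of the first step were Fkbp11, a folding isomerase (-0.91), Txndc5, a disulfide isomerase (-0.76) and Hyou1, a partner of BiP (-0.75). Fkbp11 lost its call without E13.5 saline replicate 2 or 3 or E15.5 saline replicate 3 (adjusted p from 0.057 to 0.095) and with the mitochondrial and ribosomal covariates (0.063), and Hyou1 without E13.5 saline replicate 1 or 3 or E15.5 saline replicate 3 (0.054 to 0.055). Of the 22 genes of ER-associated degradation 5 were higher and 2 lower at the first step, with a median of 0.07 near that of all genes, and 7 were higher and 0 lower at the second, with a median of 0.12 beside 0.03. The lectin Os9, which picks out misfolded glycoproteins, rose by 0.996 ± 0.13 from E13.5 to E15.5, Edem2 by 0.61 ± 0.12, Erlec1 by 0.58 ± 0.12, and Selenos by 0.88 ± 0.14 from E15.5 to P14. Nploc4, a cofactor of the segregase that pulls proteins from the ER, was lower at the first step, at -0.78 ± 0.10.

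The 19 sensors and regulators had 2 called higher and 1 lower from E13.5 to E15.5 and 7 higher and 1 lower from E15.5 to P14. Ern1, which encodes IRE1, rose by 0.74 ± 0.21 in the second step, and Creb3l2, a membrane-bound factor related to ATF6, by 1.27 ± 0.19. Of 37 ATF4 and CHOP targets 35 could be tested. In the first step 3 were higher, Ddit4 (1.13 ± 0.34), Bbc3 (0.80 ± 0.13) and Cebpg (0.61 ± 0.12), and 13 lower. Ddit4 lost its call without E13.5 saline replicate 2 or 3 or E15.5 saline replicate 2 or 3 (adjusted p from 0.068 to 0.11), with dividing clusters left out (0.0504), with non-microglial clusters kept (0.054) and with the mitochondrial and ribosomal covariates (0.059). The lower ones included the amino acid transporter Slc7a5 (-1.92 ± 0.42), asparagine synthetase Asns (-1.31 ± 0.33), Aldh18a1 of proline synthesis (-1.07 ± 0.24) and the mitochondrial folate enzyme Shmt2 (-1.04 ± 0.24). Asns lost its call without E13.5 saline replicate 2 or 3 or E15.5 saline replicate 2 (adjusted p from 0.051 to 0.057). In the second step 11 were higher and 11 lower, near the shares of all genes. Stc2 was among the lower ones but had almost no UMIs at P14, so its fitted fold is not given. Psat1 of serine synthesis was at -3.00 ± 0.13, Asns at -2.18 ± 0.35 and Eif4ebp1, an inhibitor of translation initiation, at -1.86 ± 0.17. Slc7a5 rose by 1.53 ± 0.40, Ddit4 by 1.16 ± 0.32, Cebpg, which pairs with ATF4, by 0.92 ± 0.11 and the tRNA synthetase gene Nars by 0.90 ± 0.14. With the mitochondrial and ribosomal covariates, the pathway genes named here for the step from E15.5 to P14 all lost their calls. The ATF4 and CHOP list held called genes in both directions at the step where Atf4 and Ddit3 rose. In MIA microglia, where 11.3% and 9.97% of all genes were called higher and lower at the first step and 13.7% and 15.2% at the second, the first step had 0 higher and 3 lower chaperones, 5 and 1 degradation genes, 2 and 1 regulators and 2 and 12 targets. The second had 2 and 2, 4 and 0, 4 and 0, and 9 and 6.

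The genes whose levels over the 18 microglia libraries were most like Hspa5, by Pearson correlation of log2(CPM + 1) among 14208 genes, were Manf (0.92), Dnajb11 (0.92), Hsp90b1 (0.91), Pdia6 (0.91) and Fkbp11 (0.90). Those most like Ddit3 were Abhd12 (0.97), Lag3 (0.96), Tspyl2 (0.95), Hvcn1 (0.95) and Tiparp (0.95). Among the 10 genes themselves, Hspa5 was at 0.91 with Hsp90b1, 0.68 with Calr and 0.13 with Pdia3. It was at -0.65 with Dnajb9, -0.56 with Herpud1 and -0.54 with Ddit3, and at 0.02 with Xbp1 and 0.21 with Atf4. The libraries share ages, treatments and depth, so these are descriptions of common patterns and carry no test.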

How the data were processed

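The authors deposited counts of UMIs per gene and barcode for each library (Chromium 3′ kit, mm10, not normalized), made with Cell Ranger, for which the processing notes name 3.1.0 and the file headers 3.1.0, or 6.0.1 for replicate 2 nuclei. Filters kept nuclei from 500 UMIs and 200 genes up, and microglial barcodes from 500 genes up whose mitochondrial share was no more than 20%. The highest Scrublet scores were removed as doublets at 0.8% per 1000 cells. Cells were clustered with scanpy 1.11.5 (2000 variable genes, 30 components, 20 neighbours, Leiden resolution 1) without the 10 genes, the pathway genes and Csf1r, and clusters were named from at least 3 markers. Non-microglial clusters were left out of the sorted microglia. Counts were summed per library, the replicate, and tested with edgeR 4.0.16 (quasi-likelihood, TMM, filterByExpr, Benjamini-Hochberg, threshold 0.05) in R 4.3.3, with DESeq2 1.42.0 as an alternative. MIA was tested at each age alone, ages within 1 treatment in a shared fit, and nuclei in a fit of all 8 libraries. The labels do not say whether libraries of a group came from separate litters, so p-values measure the spread between libraries. The nuclei came from 4 dams in all, with littermates of both genotypes, so libraries share dams, which the fit did not take into account.

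The genes and the pathway lists were chosen with earlier results of these data known. All 10 genes were named, and of each pathway list examples past the threshold, from the 10 largest per comparison and direction. Same-numbered libraries deviated together in nuclei (correlations 0.471 to 0.705), where the number also separates the software versions, and at E15.5 (0.173 to 0.706), but not in every pair at E13.5 (-0.00285 for replicate 2), and P14 offered only 2 pairs. The scripts were tested on simulated counts. Protein sequences were not used here.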

Additional observations from a re-analysis of the deposited data

Results flagged for a closer look

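Dnajb9 in P14 saline replicate 2 stood apart, at 61.2 CPM, while the other 3 P14 saline libraries lay between 51.1 and 51.8 CPM. The gap to its neighbour was 0.931 of the range of the group, above the 95% limit of 0.829 for 4 libraries. All 10 genes were examined in this group, the only microglia group of 4 libraries, and chance alone flags about 1 in 20. The rise of Dnajb9 from E15.5 to P14 kept its call without this library.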

How the results depend on the processing

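Calls of the 9 testable genes were recounted under each alternative. From E13.5 to E15.5 in saline microglia, 3 were called, 1 to 5 with single libraries left out, and 4 with DESeq2 or its size factors, where Calr passed; Calr also passed with non-microglial clusters kept. From E15.5 to P14 in saline, 6 were called and 4 to 6 with a library left out, but 0 with mitochondrial and ribosomal shares as covariates, where 196 genes were called at all and the shares themselves separate P14 from the embryonic ages. With these covariates Calr turned to 2.64, Atf3 to 6.53, Ddit4 to -1.46 and Pck2 to -3.39. In MIA microglia 1 was called from E13.5 to E15.5, 0 to 3 with a library left out, 0 with DESeq2 size factors, with non-microglial clusters kept, with shared barcodes kept or with library sizes alone, 2 with DESeq2 (Calr and Herpud1, with Ddit3 lost), 2 without a filter on low counts (Ddit3 and Herpud1), and 4 with the covariates (Calr, Dnajb9, Herpud1 and Ddit3). From E15.5 to P14 1 was called, 0 to 4 with a library left out, 3 with non-microglial clusters kept and 5 with library sizes alone. Keeping shared barcodes and using library sizes alone were added after the data were seen. By cell type in wild-type nuclei 0 became 1 (Xbp1 in apical progenitors) with the replicate block and without the filter. The replicate block changed no other call of these genes. In all other comparisons these genes had 0 calls under every alternative run. Over all genes, no filter on low counts gave 63 calls for MIA in wild-type nuclei, 5 in Csf1r-null nuclei, 67 and 3 for genotype in saline and MIA, and 10 for the interaction, each in place of 0. The block gave 2 for genotype in saline, 2 for the interaction and 8 for MIA in E13.5 microglia, in place of 0, and in wild-type nuclei 24 in intermediate progenitors and 140 in interneurons. With 2 to 4 libraries a group, differences of the size of the SEs given cannot be detected, and Trib3 was below the depth for any test.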

Other observations

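Border macrophage-like cells in 11 embryonic libraries of sorted microglia carried the 9 stress genes other than Trib3 at levels close to those of the other microglia of the same library, with ratios of the means between 0.95 and 1.18. Xbp1 was higher in 10 of 11 libraries at a ratio of 1.16, and Ddit3 in 9 of 11 at a ratio of 1.18. Of 9125 genes 6.58% were higher and 7.29% lower in all 11 libraries. In the sorted saline libraries at E13.5, marker genes of border macrophages summed to between 279 and 1440 CPM. No test was made of these values.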
